A study of Mus musculus with 8 samples.

Results

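B430306N03Rik and the neighbouring genes Treml1, Treml2 and Treml4 lie in the cluster of triggering receptors expressed on myeloid cells (TREM) on mouse chromosome 17. They are 4 of the 55573 genes in the deposited count table. B430306N03Rik was selected on its counts in these libraries, having been called higher in those labelled Furin KO, and the other members were taken by name and by place in the same locus. The genotype values of the members are therefore a description, with no test. RefSeq lists B430306N03Rik under the synonym Treml6, which places it among the TREM-like genes.

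TREM and TREM-like proteins are cell surface receptors with an immunoglobulin-type domain, known best from neutrophils, macrophages, dendritic cells and platelets. Activating members such as TREM1 and TREM2 carry a charged residue in the membrane and signal through the adaptor DAP12 (gene Tyrobp), whose tyrosine motif recruits the kinase SYK. TREML1 is a platelet receptor with an inhibitory tyrosine motif in its tail, TREML4 binds dying cells on splenic myeloid cells, and TREML2 has been reported on mouse B cells, neutrophils, macrophages and CD8+ T cells.

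The RNA was that of naive CD8+ T cells, cytotoxic lymphocytes that have not met antigen, of spleen and lymph nodes of male C57BL/6 mice. The cells were enriched with a magnetic CD8a kit and sorted by flow cytometry. 5 libraries were labelled Furin KO, lacking by label the proprotein convertase FURIN, of which 1 came from a mouse of 7 weeks and the others from mice of 8 weeks. 3 libraries were labelled WT, likewise 1 of 7 weeks and the others of 8 weeks. The labels give neither the deleted part of Furin, nor a Cre line. They also do not say that every library is a different animal, and the spread behind the p-values may thus be technical in part.

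Total counts ranged from 11308220 to 21040431 in the libraries labelled Furin KO and from 14463450 to 19159021 in WT. Furin itself stood at 58.0 to 86.4 CPM (counts divided by the TMM-scaled size of the library) in the libraries labelled Furin KO and at 57.0 to 66.9 CPM in WT. The whole-gene count thus does not check the labels. Furin KO replicate 5 had the lowest total and stood apart on the first principal component, at 66.7 against -15.2 to -0.13 in the other 7 libraries. The defining genes of CD8+ T cells summed to 9534 to 11180 CPM in the libraries labelled Furin KO and to 9096 to 10692 CPM in WT.

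B430306N03Rik (ENSMUSG00000043740) occupies chromosome 17, 48316141 to 48327024, on the plus strand of GRCm38. The gene Treml2 (ENSMUSG00000071068, 48299498 to 48312533) ends 3607 bases upstream on the same strand. Neither gene overlaps another annotated gene. B430306N03Rik has relatives in the same cluster: A530064D06Rik, listed by RefSeq under the synonyms Trem4 and pdctrem, and 9830107B12Rik, listed as Trem5. Their gap to B430306N03Rik is 148865 and 169872 bases, and both lie on the minus strand. The promoter sequences of B430306N03Rik and A530064D06Rik are shown because they are nearly alike although only the first of these genes had counts. They are from RefSeq (GRCm38.p6), each from 250 bases before to 50 bases after the start of the gene in that source, 5′ to 3′ on the strand of the gene. For B430306N03Rik this start is not the one given above, which is from another annotation. The first is chr17:48315912-48316211 on the plus strand and the second chr17:48167208-48167507 on the minus strand, and capitals mark bases that differ, or are inserted, within the aligned stretch. The 2 bases at the start of the second sequence and the 3 at the end of the first lie outside it.
B430306N03Rik: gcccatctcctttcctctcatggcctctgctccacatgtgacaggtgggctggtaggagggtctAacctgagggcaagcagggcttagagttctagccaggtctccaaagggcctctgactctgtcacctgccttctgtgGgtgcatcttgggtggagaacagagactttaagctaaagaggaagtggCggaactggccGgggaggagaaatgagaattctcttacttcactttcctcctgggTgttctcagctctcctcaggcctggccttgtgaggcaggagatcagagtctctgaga
A530064D06Rik: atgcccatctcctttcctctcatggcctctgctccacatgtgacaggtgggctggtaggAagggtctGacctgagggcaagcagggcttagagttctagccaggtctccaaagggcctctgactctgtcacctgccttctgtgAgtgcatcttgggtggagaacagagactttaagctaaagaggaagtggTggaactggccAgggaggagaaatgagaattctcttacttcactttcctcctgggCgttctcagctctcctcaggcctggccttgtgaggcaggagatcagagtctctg

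Over the 297 aligned positions, 292 bases matched and 5 differed (98.3% identity), beside 1 inserted base. Both promoters held the letters GAGGAAGT, the form in which ETS family factors such as PU.1 are known to bind. The letters began 72 bases before the RefSeq start in B430306N03Rik and 69 bases before it in A530064D06Rik. 3.20% of the 32851 promoters in the table held these letters on either strand. The letters were chosen after the sequences were read. The promoters of 9830107B12Rik, Trem1, Trem2, Treml1 and Treml4 did not hold them, and those of Treml2 and Trem3 were not analysed here.

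The second exon, of 312 bases in each of the 3 relatives, matched at 94.2% of positions between B430306N03Rik and A530064D06Rik and at 90.7% between B430306N03Rik and 9830107B12Rik. Between A530064D06Rik and 9830107B12Rik it matched at 88.1%. The second exons of the other 33 pairs among the 9 TREM genes matched at 47.2% to 58.3% of alignment columns. Here columns with a gap count as not matching, whereas the promoter identity leaves them out. Of the 3947 words of 50 bases in the main transcript of B430306N03Rik, 3760 (95.3%) occurred in no annotated transcript of another gene on either strand. 175 were shared with A530064D06Rik and 38 with 9830107B12Rik, all of them starting within the first 552 bases of the transcript. With words of 75 and 100 bases, the unique share was 97.6% and 98.9%. How reads that match several genes were counted is not given in the sources used, so the reads from the 5′ part of B430306N03Rik are uncertain. Every 50-base word of Treml2 was unique.

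**Figure D1:**
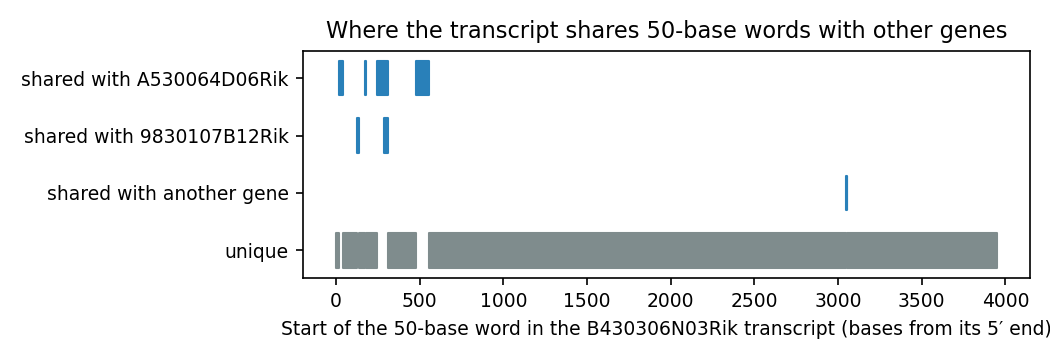
Positions, in bases from the 5′ end of the main B430306N03Rik transcript, at which 50-base words start that also occur in A530064D06Rik, in 9830107B12Rik or in another gene, and those that are unique. The shared words lie near the 5′ end, apart from 2 that start at bases 3050 and 3051, and 95.3% of all words are unique.

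Of the 9 TREM family genes of the cluster, which spans 241.6 kb, only Treml2 and B430306N03Rik had counts in these libraries. They are next to each other. Treml2 had 38581 and B430306N03Rik 4111 counts over the 8 libraries. The other 7 genes, among them the members Treml1 and Treml4, had 0 counts in all 8 libraries. Those 7 also include Trem1, which amplifies inflammatory responses of neutrophils and monocytes, Trem2, a lipid-sensing receptor of macrophages, Trem3, an activating receptor of mouse macrophages, and both relatives of B430306N03Rik. A count of 0 allows up to 3 counts per library, which is 0.143 to 0.264 CPM in the libraries labelled Furin KO and 0.157 to 0.206 CPM in WT, for counting error only. A530064D06Rik had no count although 82.3% of the 1810 words of 50 bases in its coding transcript were unique. Of the 4 members, 2 passed the filter on low counts.

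**Figure D2:**
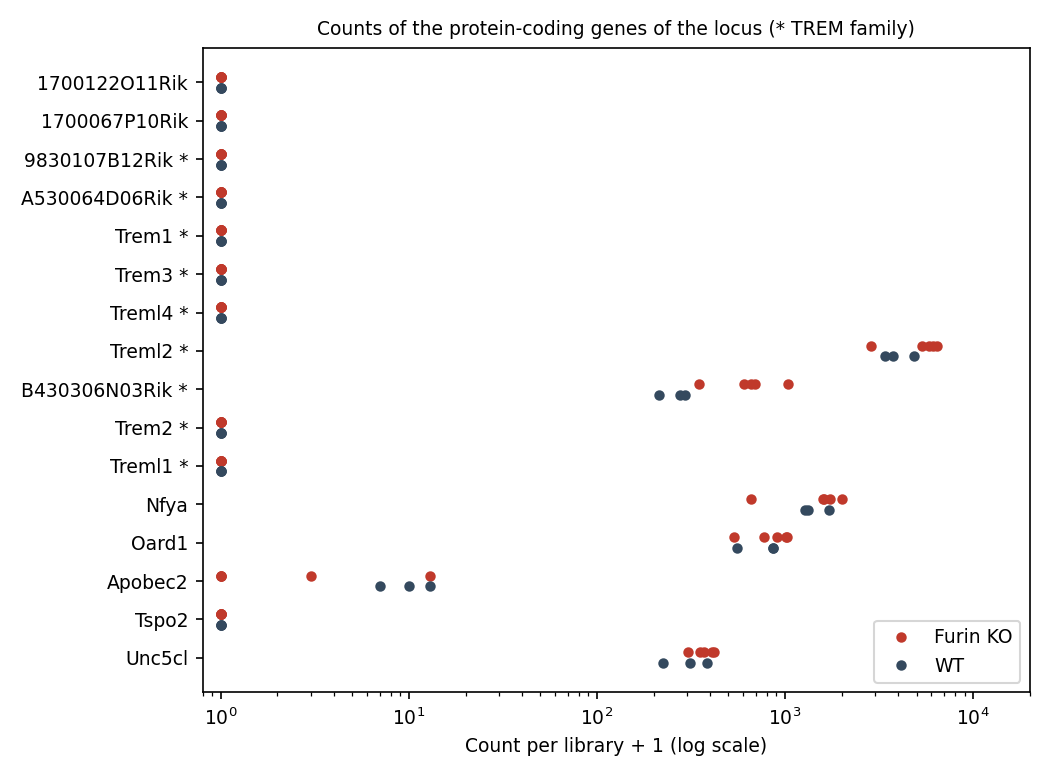
Counts per library plus 1, on a log scale, of the 16 protein-coding genes around the cluster in genome order from top to bottom, with 1 point for each of the 5 libraries labelled Furin KO (upper row of each gene) and the 3 WT libraries (lower row). TREM family genes carry an asterisk, and 7 of these 9 are at 0 in every library.

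B430306N03Rik was higher in the libraries labelled Furin KO. It had 661, 1030, 688, 602 and 348 counts in Furin KO replicates 1 to 5 and 213, 275 and 294 counts in WT replicates 1 to 3. Scaled, these were 32.1, 49.3, 36.7, 28.7 and 30.6 CPM in Furin KO replicates 1 to 5 and 14.6, 14.4 and 16.5 CPM in WT replicates 1 to 3. Every library labelled Furin KO lay above every WT library, and replicate 2 was the highest. The means were 35.5 ± 8.30 CPM (SD, n = 5) in the libraries labelled Furin KO and 15.2 ± 1.19 CPM (SD, n = 3) in WT, a 2.34-fold ratio and a log2 fold change of 1.23 (95% interval 0.86 to 1.60). In 1.31% of the 12500 genes tested, all libraries labelled Furin KO lay above all WT libraries, and in 2.90% the groups did not overlap in either direction. By edgeR's quasi-likelihood test 0.0320% of genes passed at an adjusted p under 0.05, and 0.0240% passed and were higher. Of the 2 members tested, B430306N03Rik was the 1 that passed, but it was chosen for this and nothing is read from the call.

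The libraries labelled Furin KO spread among themselves, with a coefficient of variation of 23.4% against 7.84% in WT. The interval of replicate 2, 46.4 to 52.4 CPM, did not meet that of any other library labelled Furin KO. Without replicate 2 the log2 fold change was 1.08, and without replicate 5, which stood apart on all genes, it was 1.27. Furin KO replicates 2 and 3 and WT replicate 2 had low levels of the early response gene Fos, at 204, 85.8 and 144 CPM, against 801 to 1075 CPM in the other 3 libraries labelled Furin KO and 807 and 944 CPM in the other WT libraries. Replicates 2 and 3 were also the highest of the libraries labelled Furin KO in B430306N03Rik, while WT replicate 2 was the lowest of WT, and the part of the Fos level in this was not tested. These 3 libraries have consecutive title numbers and form the second of 3 runs of such numbers.

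Treml2, a receptor for which the costimulatory ligand B7-H3 (gene Cd276) has been reported, was the more abundant of the 2 detected members. It stood at 258, 306, 328, 278 and 252 CPM in Furin KO replicates 1 to 5 and at 233, 254 and 212 CPM in WT replicates 1 to 3. The groups overlapped narrowly, since Furin KO replicate 5 lay just under WT replicate 2. The means were 284 ± 32.1 CPM (SD, n = 5) in the libraries labelled Furin KO and 233 ± 21.1 CPM (SD, n = 3) in WT, a log2 fold change of 0.29 (95% interval 0.07 to 0.51). This interval is not adjusted for the number of genes tested, and Treml2 did not pass the threshold. The interval of B430306N03Rik lay above that of Treml2, and the difference between the 2 fold changes was not tested.

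**Figure D3:**
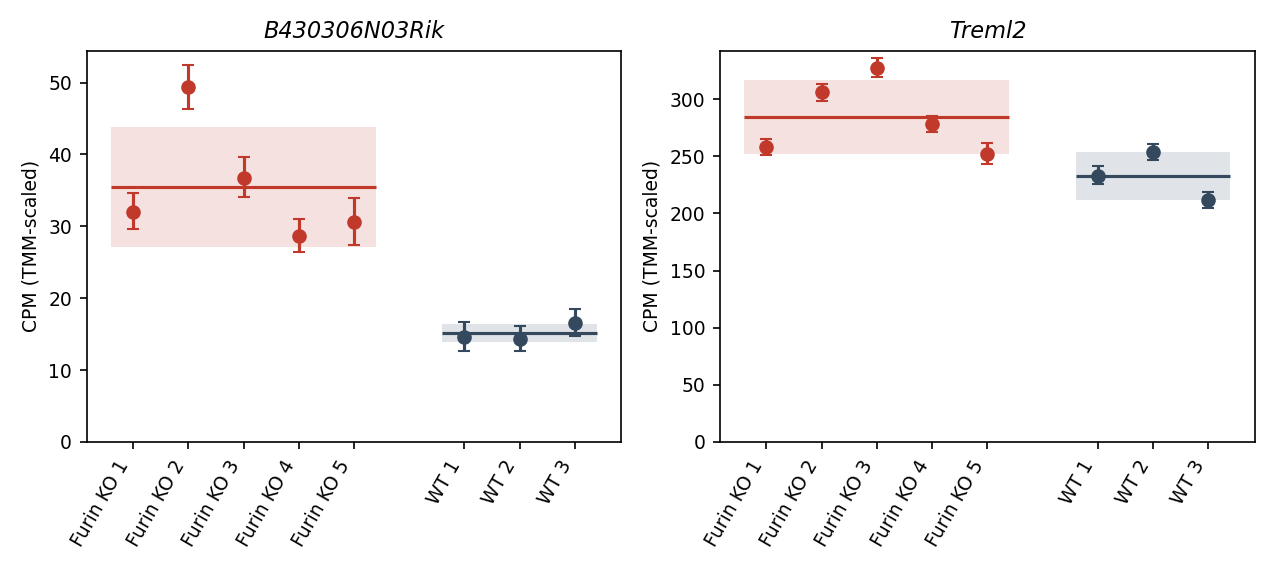
CPM of B430306N03Rik (left) and Treml2 (right) in each library, the 5 labelled Furin KO in red and the 3 WT in dark blue, with bars for the 95% Poisson interval of the count, lines for group means and bands for 1 SD. B430306N03Rik lies between 28.7 and 49.3 CPM in the libraries labelled Furin KO and between 14.4 and 16.5 CPM in WT, and the Treml2 groups overlap.

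The balance within the pair moved with B430306N03Rik. It made up 11.04%, 13.9%, 10.1%, 9.35% and 10.8% of the counts of the pair in Furin KO replicates 1 to 5 and 5.90%, 5.35% and 7.24% in WT replicates 1 to 3. There were 8.22 ± 1.30 Treml2 counts for each B430306N03Rik count in the libraries labelled Furin KO (SD, n = 5) and 15.5 ± 2.48 in WT (SD, n = 3). The share does not depend on how libraries were scaled, since both counts come from the same library. It uses the contrast for which B430306N03Rik was chosen and has no test.

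**Figure D4:**
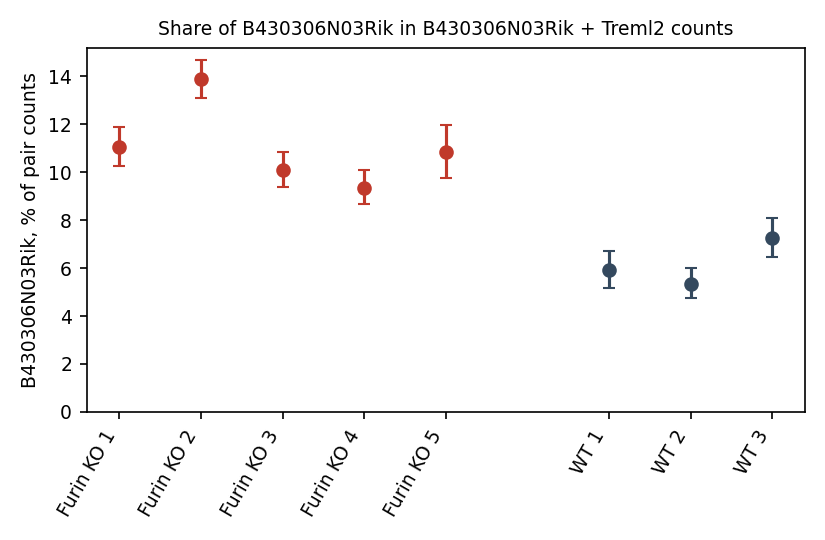
Share of B430306N03Rik in the summed counts of B430306N03Rik and Treml2 in each library, in percent, with exact 95% binomial intervals, for the 5 libraries labelled Furin KO (red) and the 3 WT libraries (dark blue). The shares are 9.35% to 13.9% in the libraries labelled Furin KO and 5.35% to 7.24% in WT.

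Per kilobase of exon, Treml2 stood at 57.8 ± 6.52 CPM per kb in the libraries labelled Furin KO and 47.4 ± 4.29 CPM per kb in WT. This level, over all 8 libraries, was above that of 92.9% of tested genes. B430306N03Rik stood at 6.75 ± 1.58 CPM per kb in the libraries labelled Furin KO and 2.89 ± 0.226 CPM per kb in WT, and its level was above that of 44.8% of tested genes. In order of level per kilobase, Treml2 came above the flanking genes Oard1 and Nfya, and B430306N03Rik came below them. Oard1, an enzyme that removes ADP-ribose from proteins, had 29.3 ± 2.0 CPM per kb in the libraries labelled Furin KO and 28.2 ± 3.44 CPM per kb in WT. Nfya, a subunit of the transcription factor NF-Y, had 10.96 ± 1.97 CPM per kb in the libraries labelled Furin KO and 11.5 ± 1.47 CPM per kb in WT.

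The libraries were also divided into 3 runs of consecutive title numbers, each holding both genotypes. The runs were chosen from a likeness in counts seen earlier, and no label calls them a batch. In the first run, which holds the libraries of 7 weeks (n = 1 and 1), B430306N03Rik was 2.19 times and Treml2 1.11 times as high in the library labelled Furin KO as in WT. In the second run, which holds the 3 libraries with low Fos (n = 2 and 1), the ratios were 3.00 for B430306N03Rik and 1.25 for Treml2, and in the third (n = 2 and 1) 1.79 for B430306N03Rik and 1.25 for Treml2. The direction for B430306N03Rik in each run follows from its selection, since its groups do not overlap.

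Age was not used to choose the members and could be tested. The libraries of 7 weeks are also those of the first run, so age and run cannot be told apart. B430306N03Rik had 32.1 CPM in the library labelled Furin KO of 7 weeks, within the 28.7 to 49.3 CPM of those of 8 weeks, and 14.6 CPM in the WT library of 7 weeks, against 14.4 and 16.5 CPM in those of 8 weeks. With genotype as a covariate, its log2 fold change of 7 over 8 weeks was -0.14 (95% interval -0.55 to 0.27; edgeR adjusted p = 0.822, n = 2 and 6). That of Treml2 was -0.09 (95% interval -0.32 to 0.14; edgeR adjusted p = 0.777). In this comparison 0.336% of the 12500 genes passed. Neither gene differed beyond the spread of the libraries, though the intervals of the 2 genes allow modest changes.

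The genes beyond the cluster were tested in the same fit across all 12500 genes. Within 200 kb of the cluster 5 genes other than the members were tested. By edgeR 0 of them passed, against 0.0320% of all genes, 0 passed by DESeq2, against 0.120%, and 0 had an unadjusted p under 0.05, against 3.21%. Their log2 fold changes ran from -1.86 to 0.19. The median was 0.05, against -0.00068 over all genes. Nfya had 80.2 ± 14.4 CPM in the libraries labelled Furin KO and 84.0 ± 10.7 CPM in WT, and Oard1 had 45.7 ± 3.12 CPM in the libraries labelled Furin KO and 44.0 ± 5.36 CPM in WT. The log2 fold changes of Nfya and Oard1 were -0.06 (95% interval -0.36 to 0.23) and 0.05 (95% interval -0.20 to 0.31), with an edgeR adjusted p of 1 for both. Apobec2, of the cytidine deaminase family, had at most 12 counts in any library, and an antisense gene overlaps it. Its log2 fold change was the lowest of the 5, at -1.86 (95% interval -4.36 to 0.65). Tspo2, known from red cell precursors, had 0 counts in all libraries.

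Of 4 listed adaptor genes of immune receptors, Tyrobp and Fcer1g were close to 0, and Hcst and Cd247 were present. Tyrobp, which encodes DAP12, had 8 counts over all 8 libraries, and Fcer1g, the common chain of Fc receptors, had 21. Hcst, which encodes the adaptor DAP10, stood at 87.1 ± 12.8 CPM in the libraries labelled Furin KO and 87.5 ± 10.2 CPM in WT. Cd247, the zeta chain of the T cell receptor, stood at 540 ± 48.4 CPM in the libraries labelled Furin KO and 561 ± 50.3 CPM in WT. Of the kinases that bind such tyrosine motifs, Syk had 8 counts, all of them in Furin KO replicate 2, whereas Zap70, its counterpart in T cells, stood at 278 ± 18.3 CPM in the libraries labelled Furin KO and 279 ± 4.61 CPM in WT. Tyrobp, Syk and Zap70 were named after their values were seen.

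By edgeR, 0 of the 2 tested adaptors and 0 of the 24 tested signalling genes passed, and DESeq2 called 0 of them. None of the adaptors and 2 of the signalling genes had an unadjusted p under 0.05, beside the 3.21% of all genes. 9 of the signalling genes had fold changes above 0 and 15 below 0, with a median log2 fold change of -0.03, and over all genes 6227 were above 0 and 6273 below. Among the most abundant were Pik3cd, a catalytic subunit of phosphoinositide 3-kinase, with a log2 fold change of 0.05, and Lck, the kinase of the CD8 co-receptor, with -0.0049.

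**Figure D5:**
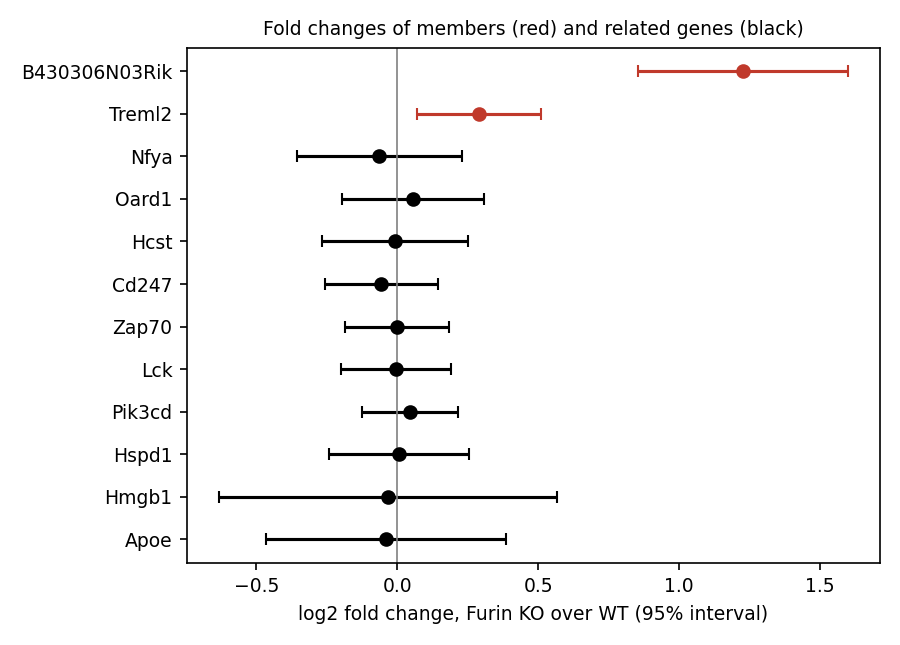
Log2 fold change, libraries labelled Furin KO over WT, with 95% intervals from the edgeR fit, for the 2 detected members (red) and for a selection of abundant neighbours, adaptors, signalling genes and reported ligands (black). Of the genes plotted, B430306N03Rik has the highest interval, 0.86 to 1.60, and those of the black points include 0.

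Of 9 genes for ligands reported for TREM family receptors, 5 had 0 counts in every library, among them Cd276. The 4 tested ones, the most abundant being Hspd1, a mitochondrial chaperone, Hmgb1, a chromatin protein released from damaged cells, and Apoe, a lipid carrier, gave 0 past the threshold by edgeR, 0 by DESeq2 and 0 at an unadjusted p under 0.05. Shares of 0.0320%, 0.120% and 3.21% over all genes would also leave 4 genes with few or no calls. Their log2 fold changes lay between -0.04 and 0.0055. Of 15 related immunoglobulin-type receptors, among them the CD300 and PILR families, 14 had 0 counts in every library, and the remaining one, Cd300lf, had 14 counts, all in libraries labelled Furin KO and at most 6 in any of them. None passed the filter on low counts.

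Markers of the cells in which TREM receptors are best known were near 0. The 5 neutrophil markers had 0 counts in every library. The 5 markers of monocytes and macrophages summed to 0.320 to 1.41 CPM in the libraries labelled Furin KO and 0.313 to 2.08 CPM in WT, with Csf1r, Adgre1 and Cd14 at 0. The 5 B cell markers summed to at most 1.34 CPM in the libraries labelled Furin KO and at most 1.04 CPM in WT, with Ms4a1 at 0. The 5 dendritic cell markers summed to 0.527 to 3.20 CPM in the libraries labelled Furin KO and 0.206 to 2.02 CPM in WT, with Siglech and Xcr1 at 0. Of the 5 platelet markers, Pf4, Ppbp, Gp9 and Gp1ba were at 0, and Itga2b stood at 5.89 ± 1.77 CPM in the libraries labelled Furin KO and 7.25 ± 0.489 CPM in WT. The 4 NK cell markers summed to 33.6 to 51.5 CPM in the libraries labelled Furin KO and 39.5 to 40.4 CPM in WT, nearly all of it Eomes, which CD8+ T cells also express, with Ncr1 and Klra8 at 0. The 4 markers of CD4+ T cells summed to 1.239 to 3.10 CPM in the libraries labelled Furin KO and 2.81 to 5.77 CPM in WT, and the 3 erythroid markers had 0 counts. Of the 15 tested genes in all marker lists, 0 passed by edgeR (0.0320% of all genes), 0 by DESeq2 (0.120%) and 0 had an unadjusted p under 0.05 (3.21%), too few genes for these shares to show a difference. In bulk RNA, fewer cells of a type and less RNA per cell cannot be told apart.

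Likeness to B430306N03Rik was measured by Pearson's r of log2 CPM over the 8 libraries, which share the genotype difference, among 9275 genes with a mean of at least 5 CPM, and is given as a description. The most alike were Naaa, a lysosomal amidase (0.96), Ly6a, the surface protein Sca-1 (0.96), Igfbp4, a binding protein of insulin-like growth factors (0.94), Idh3b, a subunit of mitochondrial isocitrate dehydrogenase (0.94), and Socs3, an inhibitor of cytokine signalling (0.93). Naaa had 6.24 CPM in the libraries labelled Furin KO and 3.53 CPM in WT. Igfbp4 had 781 CPM in the libraries labelled Furin KO and 532 CPM in WT. Idh3b had 197 CPM in the libraries labelled Furin KO and 174 CPM in WT. Treml2 had a value of 0.78 and ranked at 81. With the genotype means taken out, the most alike were Uri1 (0.97), Bloc1s2 (0.96), Trappc6b (0.96), Megf9 (0.95) and Ndufaf1 (0.94), and Treml2 had 0.42 at rank 1624. No gene was among the first 5 in both lists.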

How the data were processed

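The values were deposited as raw counts, whole numbers for 55573 Ensembl gene IDs, and the columns were matched to samples by title. FastQC, Trim Galore, STAR, DESeq2 1.24.0 and the build GRCm38 are named per the submitters' processing notes. Not given in the sources used here are the counting program, its annotation, its strand setting and its handling of reads that match several genes. GENCODE M21 (GRCm38) supplied symbols, coordinates and exon lengths for 55394 IDs, and 179 were not found there.

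Genes were filtered with filterByExpr by genotype, scaled by TMM and tested in edgeR 4.0.16 under R 4.3.3 (limma 3.58.1) with the two-sided quasi-likelihood test, adjusted by Benjamini-Hochberg over 12500 genes at a threshold of 0.05, and tested on simulated data. Age was tested with genotype as a covariate. CPM used TMM-scaled library sizes, and the log2 CPM for likeness a prior count of 2. Words and exons were compared in Python 3.11.15 with biopython 1.88. Alternatives were RLE factors, library size alone, other filters, DESeq2 1.42.0, limma-voom, the library set or age as a factor and each library left out. Replicate numbers follow accession order. Named genes were the members, up to 6 nearest protein-coding genes on each side, adaptors with at least 10 counts, up to 3 abundant tested genes of each other list and the 5 most alike genes by each measure, and 1 gene that this rule names is not reported here. The members, lists and tests were chosen with earlier results of these data known, and some genes were named after their values were seen. Precision follows from the 11308220 to 21040431 counts of a library, and intervals cover counting error only where they come from counts.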

Additional observations from a re-analysis of the deposited data

Results flagged for a closer look

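Among 37 values examined over the 5 libraries labelled Furin KO, where chance gives about 1.85, 1 had a library far from the others. Apobec2 was at 0.572 CPM in Furin KO replicate 4, against 0 to 0.0958 CPM in the other 4, and it rests on at most 12 counts in any library. None of the examined values of the members stood out in this way.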

How the results depend on the processing

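The log2 fold change of B430306N03Rik between libraries labelled Furin KO and WT was 1.08 to 1.30 in the 17 alternatives, and that of Treml2 0.23 to 0.36, all in 1 direction. The call of B430306N03Rik was lost in 3 alternatives: the edgeR adjusted p was 0.133 with the libraries of 8 weeks only, 0.0837 without WT replicate 1 and 0.0676 without WT replicate 2. B430306N03Rik was chosen for this call on the same libraries, so the alternatives that keep the call are no test of it. The 4 genes past the threshold by genotype were 38 without a filter on low counts, 15 by DESeq2 and 12 with the library set as a factor, and 3 to 5 with each library left out. The log2 fold change of B430306N03Rik between 7 and 8 weeks was -0.20 to -0.04 in 14 alternatives and did not pass in any of them. The 42 genes past the threshold by age were 278 without a filter on low counts, 382 by DESeq2 and 114 by limma-voom. With each library left out they were 0 to 58, and leaving out a library of 7 weeks left that age with 1 sample, assumed to vary like the others. They were 1 without WT replicate 1, 0 without Furin KO replicate 1 or 2, 11 without WT replicate 3, 21 without Furin KO replicate 4 and 19 without Furin KO replicate 5. The cause was not tested. No paired analysis was possible because the labels give no replicate numbers to match libraries across groups. The fit with the library set as a factor blocks by runs of titles instead. The unique share of 50-base words, 95.3%, was 97.6% and 98.9% with words of 75 and 100 bases, lengths chosen after the data were seen. Depth limits the genes at 0 counts, which could hold up to 3 counts per library.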

Other observations

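The library with the highest level of B430306N03Rik, Furin KO replicate 2 with 49.3 CPM, also had the highest level of Furin, at 86.4 CPM. Furin KO replicate 5 had the second highest level of Furin, 76.6 CPM, and 30.6 CPM of B430306N03Rik. Among the TREM family genes, the second exons of Trem1 and Trem3 matched at 58.3% of alignment columns, gaps included. This was the highest value outside the 3 relatives around B430306N03Rik.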
